A study of Oryza sativa Japonica Group with 18 samples.

Results

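The genes of ethylene synthesis and signalling were followed in roots of rice seedlings deprived of K+. The members were taken by name: the ACC synthases OsACS1 and OsACS2, the ACC oxidases OsACO1, OsACO2 and OsACO3, the receptors OsERS1 and OsETR2, the membrane protein OsEIN2 and the transcription factors OsEIL1 and OsEIL2, joined to probe sets by symbol or synonym. An EIN3-like gene (LOC4345992), which the study measured by real-time PCR, was added. Of the 10 listed names, 8 matched a probe set, and OsACO2 and OsACO3 matched none. The annotation covers 22531 of the 57194 probe sets, so a missing match does not show that the array lacks the gene. Because the name OsEIL1 belongs to 2 genes that lie next to each other, called here OsEIL1A (LOC107276358, also MHZ6) and OsEIL1B (LOC4332697), the members came to 10 genes with 13 probe sets, out of 17905 genes that had a probe set to themselves.

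Roots came from hydroponic seedlings of the japonica cultivar Nipponbare, all raised in full nutrient solution. The K+-deficient seedlings (LK) were moved to a solution from which K2SO4 had been left out, and the K+-replete seedlings (CK) were moved to one with 0.512 mM K2SO4. LK and CK roots were harvested 6 h, 3 d and 5 d later, with 3 biological replicates in each of the 6 groups, and each RNA sample, taken from several seedlings, was hybridized to 1 Affymetrix Rice Genome Array, 18 arrays in all. Values are linear signal intensities that the authors normalized, in arbitrary units, and n = 3 arrays a group throughout.

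Ethylene is made from S-adenosylmethionine. ACC synthase turns it into ACC, often the limiting step, and ACC oxidase turns ACC into ethylene. Receptors in the endoplasmic reticulum keep the pathway off while no ethylene is bound; once ethylene binds, the membrane protein EIN2 passes the signal on, and transcription factors of the EIN3/EIL family act on target genes in the nucleus. In roots, ethylene is best known for slowing elongation and for acting on root hairs, and in rice the genes EIN2 (MHZ7) and EIL1 (MHZ6) are known from mutants with altered root responses to the gas.

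The array medians lay between 22.1 and 23.4 units, no 2 arrays held identical values, and arrays of the same group correlated at r = 0.991 to 0.995 over all probe sets. Detection calls were not used here, so a signal near the array median has to be read with care. The check of the tissue used 7 probe sets of 7 root genes and 7 probe sets of 3 shoot genes. Linear signals were summed, so bright probe sets weigh most. The root sum rests mainly on Lsi1 (4433 to 5201) and Lsi2 (3654 to 4903), and the shoot sum on CAB2R. The summed root signal was 10600 to 11910 in LK and 10910 to 11700 in CK roots at 6 h, 10700 to 11690 in LK and 10490 to 11380 in CK roots at 3 d, and 11590 to 12010 in LK and 11950 to 12180 in CK roots at 5 d. Of the 7 root probe sets, LK roots had 1 called higher and 1 called lower at 3 d, then 3 called higher and 2 called lower at 5 d. Of all tested probe sets, 8.50% were called higher and 5.75% lower at 3 d, and 10.5% and 12.8% at 5 d. The summed shoot signal was 3395 to 4105 in LK and 2475 to 3425 in CK roots at 6 h, 5574 to 7184 in LK and 4998 to 6899 in CK roots at 3 d, and 7427 to 8879 in LK and 6082 to 7086 in CK roots at 5 d. Of the 6 shoot probe sets tested, 2 were called higher in LK roots at 5 d, beside the 10.5% of all tested probe sets. Both belong to the Rubisco small subunit gene OsrbcS. Another tested probe set of OsrbcS averaged 89.7 in LK and 100.9 in CK roots at 5 d, with overlapping arrays. The 7 shoot probe sets ran from 2.26 to 4579 over the arrays, with 1 OsrbcS probe set never above 11.3. The part of these cells or tissues in the results below was not tested. In whole roots, fewer cells of a type and less RNA per cell cannot be told apart.

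OsEIL1B and the EIN3-like gene, both of the EIN3/EIL family, and the receptor OsETR2 were higher in LK roots by 5 d, and the ACC synthase OsACS2 was lower. Signals under 10 were raised to 10, the 25165 probe sets with the highest means on the log2 scale were tested in 1 limma fit of the 6 groups, and a probe set was called at a Benjamini-Hochberg adjusted p under 0.05. Of the 13 ethylene probe sets, 11 were tested. At 6 h limma called none of them in either direction, against 0.270% of all tested probe sets higher and 0.258% lower. An unadjusted p under 0.05 was reached by 2 of the 11 and by 2330 of the 25165 tested probe sets. At 3 d, 2 of the 11 were higher and none lower, against a background of 8.50% higher and 5.75% lower. At 5 d, 4 of the 11 were higher and 1 was lower, against a background of 10.5% higher and 12.8% lower. Of these 4, 2 were probe sets of 1 gene, OsETR2. The call on the brighter one was kept in only 15 of 27 alternative settings. The dimmer one had CK values at or near the array median. The 11 had a median log2 fold change of -0.03 (6 h), 0.12 (3 d) and 0.19 (5 d), beside 0.00, 0.04 and -0.03 for all tested probe sets. The EIN3-like gene came in through the study's real-time PCR of the same RNA, for which the study says that genes were drawn at random. The study's PCR list also holds OsHKT2;1 and OsCIPK6, which it reports as changed on the arrays. The EIN3-like calls may therefore not be independent of how the gene was chosen. The other 10 tested probe sets gave 1 higher call at 3 d, and 3 higher calls and 1 lower call at 5 d. Their median log2 fold change was -0.03 (6 h), 0.09 (3 d) and 0.16 (5 d). They still include the 2 OsEIL2 probe sets, whose gene was named from probe sets past the study's own threshold. Neither OsEIL2 probe set was called, but both enter the medians above, which are not independent of that choice. The shares above describe a list of few members and were not tested as a group.

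**Figure D1:**
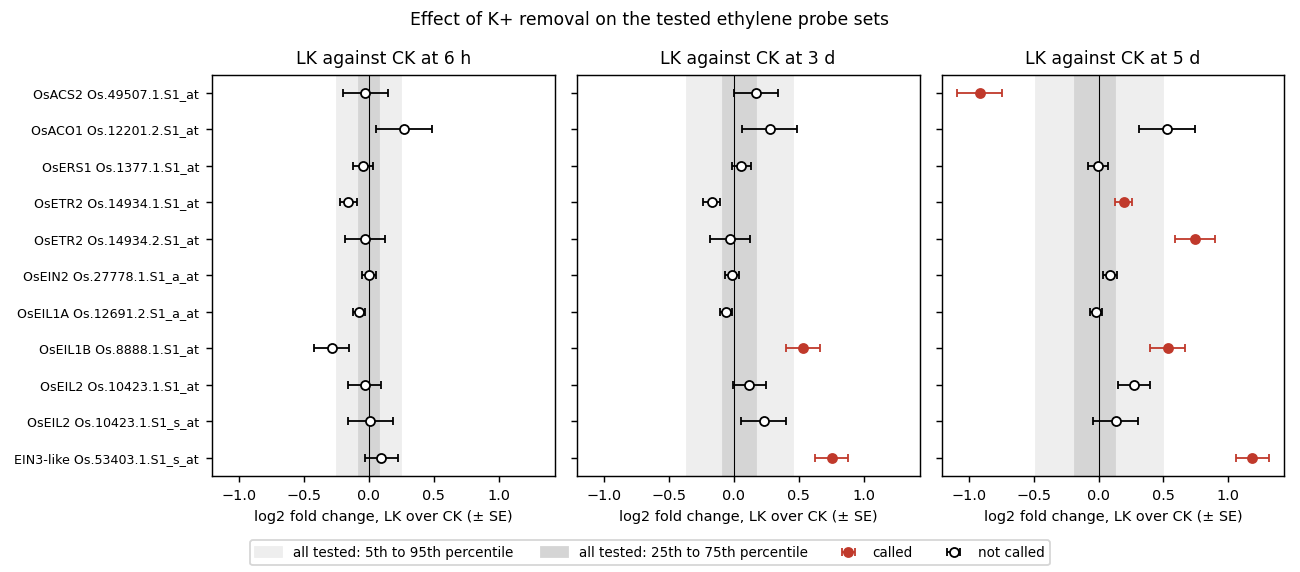
Log2 fold change of LK over CK roots (± SE) for the 11 tested ethylene probe sets at 6 h, 3 d and 5 d, with n = 3 arrays a group; red filled points passed the test, open points did not, and grey bands hold the middle of all 25165 tested probe sets. No point passes at 6 h, the EIN3-like probe set and OsEIL1B pass at 3 d, and at 5 d OsACS2 lies far to the left at -0.92 while the EIN3-like probe set lies farthest to the right at 1.18.

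Of the synthesis genes, only OsACS2 passed the test, as lower in LK roots at 5 d. Its probe set (LOC4336750) read 93.6, 120 and 109 in LK roots at 6 h, against 102, 112 and 113 in CK roots, and 105, 103 and 149.6 in LK roots at 3 d, against 85.6, 118 and 112 in CK roots. At both times the arrays of the treatments overlapped. At 5 d it read 62.1, 88.9 and 84.1 in LK roots and 147.9, 122 and 174 in CK roots, so that every LK array lay below every CK array. The mean signal was 78.4 ± 14.3 in LK and 147.9 ± 26.4 in CK roots (SD, n = 3), a ratio of 0.530 and a log2 fold change of -0.92 ± 0.17 (SE, limma adjusted p = 0.000909). This call held under all 27 alternative settings tried, with adjusted p between 0.000466 and 0.00819.

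The effect on OsACS2 also differed between times. On the log2 scale the LK effect at 5 d minus the LK effect at 3 d came to -1.09 ± 0.25 (SE, limma adjusted p = 0.0394 for the interaction), where 1.03% of all tested probe sets passed this test. The difference was called in 11 of 27 alternatives, and 11 of the arrays ended the call when left out: LK replicate 3 and CK replicate 2 at 6 h, LK replicates 1 and 3 and CK replicates 1, 2 and 3 at 3 d, and LK replicates 1 and 3 and CK replicates 1 and 3 at 5 d, with adjusted p between 0.0503 and 0.102. CK roots entered that difference too. They averaged 109 ± 5.96 (6 h), 105 ± 17.3 (3 d) and 147.9 ± 26.4 (5 d, SD, n = 3), and the log2 difference of 0.49 ± 0.17 (SE) between CK roots at 5 d and at 3 d did not pass (limma adjusted p = 0.0834).

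OsACO1 (LOC4347225, also annotated EFE for ethylene-forming enzyme), which carries out the last step, had low signals of 28.4 to 65.7 over the 18 arrays. At 6 h it read 31.4, 54.7 and 65.7 in LK roots and 36.5, 44.7 and 39.4 in CK roots, and at 3 d 47.8, 59.7 and 49.3 in LK roots and 37.6, 39.3 and 53.6 in CK roots. The LK and CK arrays overlapped at both times. At 5 d all 3 LK arrays, at 44.2, 49.8 and 51.1, lay above the CK arrays, at 28.4, 34.1 and 38.7. The log2 fold change at 5 d was 0.53 ± 0.21 (SE), with a 95% interval of 0.08 to 0.98, and it missed the threshold (limma adjusted p = 0.0860). It passed with only the arrays compared in the fit (adjusted p = 0.0274) and when LK replicate 1 at 6 h was left out (adjusted p = 0.0226). That array held the lowest of the LK readings at 6 h.

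OsACS1 (gene ID 4333976) had too low a signal to compare. Its values ran from 2.79 to 11.4 on the 18 arrays, below the lowest array median, and in each of the 6 groups at least 1 array lay under the floor of 10. It was not among the tested probe sets.

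The receptors gave a mixed picture. OsERS1 (LOC4333832), a receptor of the subfamily with a conserved histidine kinase domain, read 1139, 1268 and 1196 in LK roots at 6 h, against 1308, 1250.4 and 1157 in CK roots. It read 1079.5, 1018 and 1053 in LK roots at 3 d, against 878, 1095 and 1065 in CK roots, and 1089.8, 1016 and 1074 in LK roots at 5 d, against 1119, 1084 and 986 in CK roots. The arrays of the treatments overlapped at all 3 times, and the log2 fold changes were -0.04, 0.06 and -0.00 with an SE of 0.08 each. The widest limits of the 95% intervals over the 3 times were -0.20 and 0.22, and limma's adjusted p was 0.940, 0.654 and 0.985.

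OsETR2 (LOC4335058), of the receptor subfamily without a canonical histidine kinase, was measured by a bright and a dim probe set. The bright one read 578, 618 and 547 in LK roots at 6 h, against 694, 611 and 639.95 in CK roots, and 546, 485 and 537 in LK roots at 3 d, against 587, 619 and 558 in CK roots. At 3 d every LK array lay below every CK array, yet the log2 fold change of -0.17 ± 0.07 (SE) did not pass (limma adjusted p = 0.100), except after quantile normalization (adjusted p = 0.0179). At 5 d it read 610.3, 579 and 571 in LK roots and 537, 500.2 and 503 in CK roots, so the order was turned, with every LK array above every CK array. The mean was 587 ± 20.7 in LK and 513.5 ± 20.6 in CK roots (SD, n = 3), a ratio of 1.14 and a log2 fold change of 0.19 ± 0.07 (SE, limma adjusted p = 0.0462).

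That call on the bright OsETR2 probe set lay close to the threshold. It was kept in 15 of 27 alternatives and lost, at an adjusted p between 0.0513 and 0.150, when any 1 of the 6 arrays at 5 d was left out, and also without LK replicate 1 or CK replicate 3 at 6 h or LK replicate 3 at 3 d. The difference between its LK effects at 5 d and at 3 d, 0.36 ± 0.09 on the log2 scale (SE), missed the threshold (limma adjusted p = 0.0825) except after quantile normalization (adjusted p = 0.0146).

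The dim OsETR2 probe set was also called as higher in LK roots at 5 d. It read 42.3, 37.0 and 43.0 in LK roots and 22.3, 24.2 and 26.9 in CK roots, a ratio of 1.67 and a log2 fold change of 0.74 ± 0.15 (SE, limma adjusted p = 0.00203). The LK and CK arrays did not overlap, and the CK values lay at or near the array median. At 6 h the means were 37.5 ± 2.12 in LK and 38.5 ± 4.83 in CK roots, and at 3 d 33.2 ± 1.30 in LK and 34.4 ± 7.76 in CK roots, with overlapping arrays at both times. CK roots at 5 d had the lowest mean of the 6 groups in both OsETR2 probe sets. With a floor of 50, above every value of the dim probe set, no difference could be computed; in its other 25 alternatives the call held.

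**Figure D2:**
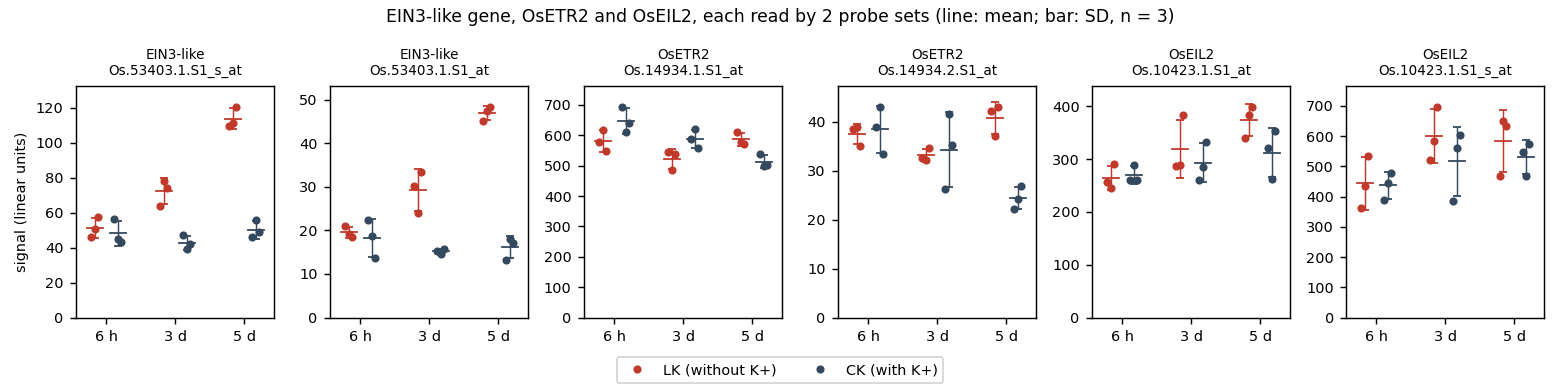
Linear signal on each array for the EIN3-like gene, OsETR2 and OsEIL2, which are each read by 2 probe sets, in LK (red) and CK (dark) roots at 6 h, 3 d and 5 d, with the mean and SD (n = 3). Both EIN3-like probe sets separate at 3 d and more widely at 5 d, both OsETR2 probe sets have LK above CK at 5 d, and the OsEIL2 arrays overlap at every time.

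OsEIN2 (LOC4342431), through which the receptors signal, was not called between LK and CK roots at any time. It read 877, 897 and 884 in LK roots at 6 h, against 939, 872 and 844 in CK roots, and 799, 782 and 751 in LK roots at 3 d, against 803, 781 and 766 in CK roots. At 5 d it read 1018, 989 and 961 in LK roots and 868, 946 and 977 in CK roots. The arrays overlapped at all 3 times. The log2 fold changes in time order were 0.00, -0.01 and 0.09 with an SE of 0.05 each, none of which passed (limma adjusted p = 0.998, 0.920 and 0.252), and the widest limits of their 95% intervals were -0.12 and 0.20.

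Of the transcription factors of the EIN3/EIL family, the EIN3-like gene and OsEIL1B rose in LK roots. The study marks the name of the EIN3-like gene as putative, and its part in ethylene signalling was not tested. The EIN3-like probe set, of the s_at type that can bind more than 1 transcript, read 46.0, 50.5 and 57.3 in LK roots at 6 h, against 56.5, 44.7 and 43.2 in CK roots, which overlapped. At 3 d it read 63.8, 78.2 and 74.3 in LK roots and 47.3, 39.0 and 41.8 in CK roots. At 5 d it read 109.6, 111 and 121 in LK roots and 45.8, 56.0 and 48.7 in CK roots. Every LK array lay above every CK array at 3 d and at 5 d. The ratio of mean signals was 1.69 at 3 d, with a log2 fold change of 0.75 ± 0.13 (SE, limma adjusted p = 0.000688), and 2.27 at 5 d, with 1.18 ± 0.13 (SE, limma adjusted p = 3.71e-06). Both calls held under all 26 alternatives, with adjusted p of at most 0.00902 at 3 d and 0.000170 at 5 d.

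In order of their means, the groups ran CK 3 d, CK 6 h, CK 5 d, LK 6 h, LK 3 d and LK 5 d for the EIN3-like probe set, from 42.7 to 114 units. The first 4 overlapped with their neighbours, and LK roots at 3 d and at 5 d each stood apart from the group below. The difference between the LK effects was 0.66 ± 0.18 on the log2 scale for 3 d against 6 h (SE, limma adjusted p = 0.0608) and 0.43 ± 0.18 for 5 d against 3 d (SE, limma adjusted p = 0.353). Neither passed, but the first did with a floor of 50 (adjusted p = 0.0247) or without CK replicate 1 at 3 d (adjusted p = 0.0473), and the second with a floor of 50 (adjusted p = 0.0178), which lies above most CK readings.

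A second probe set of the same gene, of the plain type, was too dim to be among the tested ones and is not counted. It read 21.0, 19.2 and 18.5 in LK roots at 6 h, against 22.4, 18.8 and 13.7 in CK roots. At 3 d it read 30.1, 24.1 and 33.5 in LK roots and 15.2, 14.6 and 15.8 in CK roots, and at 5 d 45.1, 47.4 and 48.4 in LK roots and 13.2, 18.1 and 16.99 in CK roots. LK and CK arrays overlapped only at 6 h, and the CK signals at 3 d and 5 d were all below the array median, so the ratios of 1.92 at 3 d and 2.91 at 5 d rest on a CK level that may be background. Without a filter on signal it passed at 3 d (limma adjusted p = 0.00637) and at 5 d (adjusted p = 8.41e-05). Both probe sets read the same RNA samples and are not separate evidence.

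OsEIL1B was called as higher in LK roots at 3 d and 5 d. It read 182, 241 and 199.5 in LK roots at 6 h, against 229, 270.1 and 258 in CK roots, and the log2 fold change of -0.29 ± 0.13 (SE) did not pass (limma adjusted p = 0.526). At 3 d it read 309.9, 284 and 405 in LK roots and 235, 226 and 221 in CK roots, and at 5 d 279, 319.97 and 307 in LK roots and 192, 186 and 253 in CK roots. All LK arrays lay above all CK arrays at these later times. The ratio was 1.46 at 3 d and 1.44 at 5 d, with log2 fold changes of 0.53 ± 0.13 (SE) at both, and limma's adjusted p was 0.0122 at 3 d and 0.00783 at 5 d. The 5 d call held under all 27 alternatives. The 3 d call was lost without a signal filter (adjusted p = 0.0565) and without LK replicate 3 at 3 d, the highest array, when the log2 fold change was 0.38 (adjusted p = 0.0724).

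For OsEIL1B the LK effect at 3 d differed from that at 6 h by 0.82 ± 0.19 on the log2 scale (SE, limma adjusted p = 0.0241), in a test that 2.88% of all tested probe sets passed. It was the only ethylene probe set called in that test. The call was kept in 19 of 27 alternatives. It was lost without a signal filter (adjusted p = 0.108) and when LK replicate 1 or 3 or CK replicate 2 or 3 at 6 h, or LK replicate 3 or CK replicate 2 or 3 at 3 d, was left out (adjusted p = 0.0517 to 0.0682). Between 3 d and 5 d the effect differed by 0.00 ± 0.19 (SE, 95% interval -0.40 to 0.40).

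OsEIL1A, the neighbour of OsEIL1B and the gene of the mhz6 mutant, did not pass at any time. It read 1942, 1917 and 1926 in LK roots at 6 h, against 2174, 1974 and 1965 in CK roots, and 2094, 1858 and 1974 in LK roots at 3 d, against 2087, 2042 and 2034 in CK roots. At 5 d it read 2128, 2111 and 2013.5 in LK roots and 2117, 2133 and 2099 in CK roots. All LK arrays lay below all CK arrays at 6 h, by a narrow margin, and the groups overlapped later. The log2 fold changes were -0.08, -0.06 and -0.02 with an SE of 0.05 each (limma adjusted p = 0.686, 0.457 and 0.777), and no limit of their 95% intervals was farther from 0 than -0.18. The effects on OsEIL1A and OsEIL1B were not tested against each other.

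A second OsEIL1A probe set stayed between 9.03 and 29.5 on all arrays, at or near the array median, and was not tested. Another 3 probe sets are annotated to both OsEIL1 genes and a further gene, and so were left out of every count. None of the 3 passed at any time, with log2 fold changes between -0.20 and 0.03.

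OsEIL2 is named here from a target description that the study gave for probe sets past its own threshold, since the gene table holds no name for LOC4344331, so a change at its probe sets would not be independent of that choice. The plain one of its 2 probe sets read 257, 245 and 290.4 in LK roots at 6 h, against 260.1, 289 and 261 in CK roots, and 286, 289 and 383 in LK roots at 3 d, against 260.5, 285 and 333 in CK roots. At 5 d it read 340.1, 384 and 399 in LK roots and 320.2, 262 and 353 in CK roots. The arrays overlapped each time. The log2 fold change of 0.27 ± 0.13 (SE) at 5 d, with a 95% interval of 0.01 to 0.54, did not pass over all tested probe sets (limma adjusted p = 0.133). The other, of the s_at type, had 95% intervals that included 0 at all 3 times and a log2 fold change of 0.13 ± 0.17 (SE) at 5 d.

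**Figure D3:**
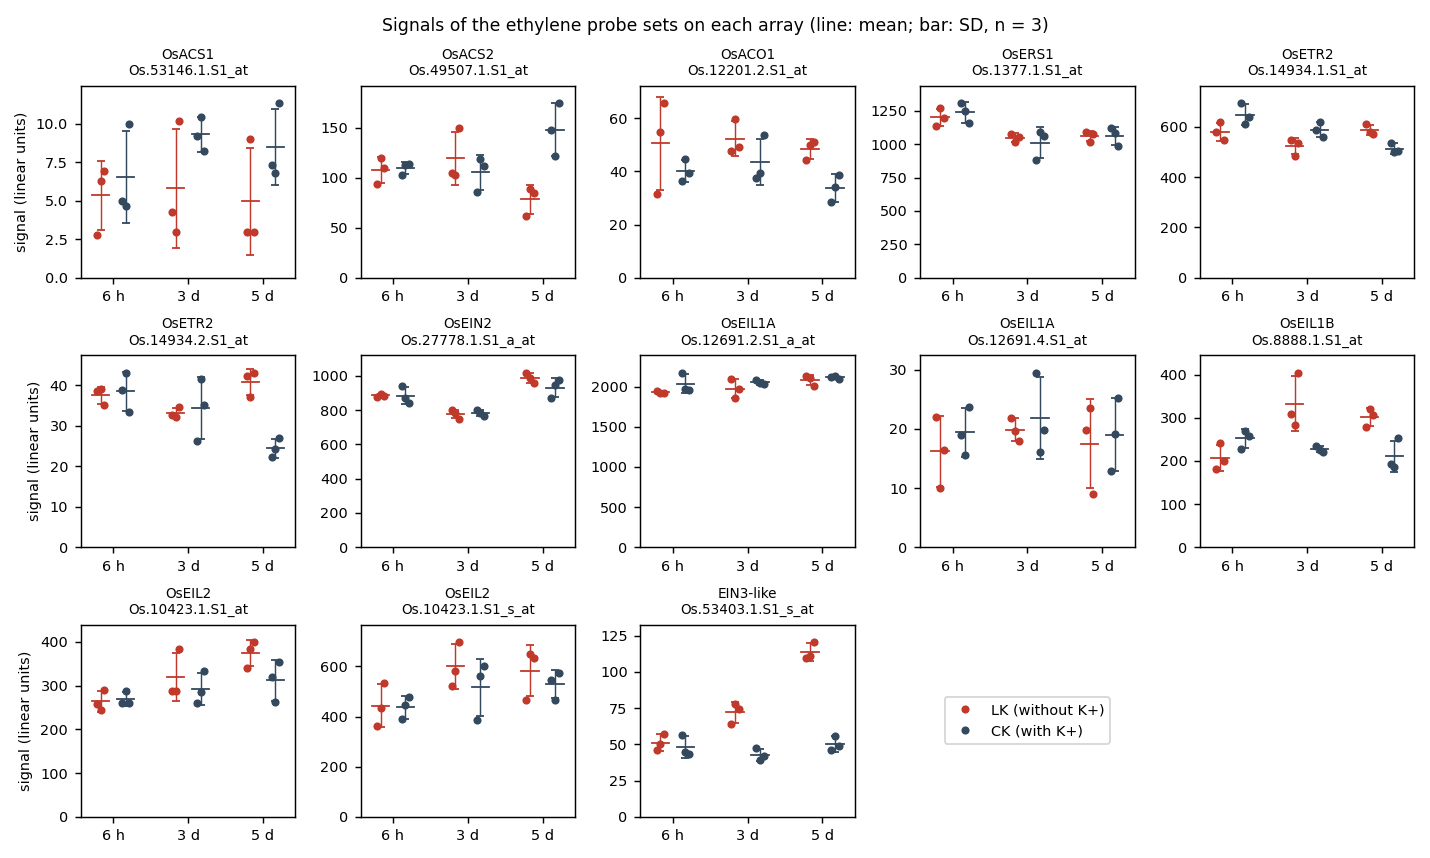
Linear signal of each of the 13 ethylene probe sets on each of the 18 arrays (points), with mean and SD (n = 3), for LK (red, left) and CK (dark, right) roots at 6 h, 3 d and 5 d; each panel has its own axis from 0. The EIN3-like probe set climbs to 114 in LK roots at 5 d while CK roots stay near 50, OsACS2 drops to 78.4 in LK roots at 5 d beside 147.9 in CK roots, and OsERS1, OsEIN2 and OsEIL1A keep LK and CK close together.

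In CK roots alone, 2 ethylene probe sets were called between 3 d and 6 h, both lower at 3 d, where 15.1% of all tested probe sets were called in either direction. OsERS1 averaged 1013 ± 117 in CK roots at 3 d and 1238 ± 76.2 in CK roots at 6 h (SD, n = 3), a log2 difference of -0.30 ± 0.08 (SE, limma adjusted p = 0.0132). This was lost in 3 of 27 alternatives: with only the arrays compared (adjusted p = 0.0864), without CK replicate 1 at 6 h (adjusted p = 0.0567) and without CK replicate 1 at 3 d (adjusted p = 0.0643). OsEIN2 averaged 783 ± 18.4 at 3 d and 885 ± 49.1 at 6 h, a log2 difference of -0.17 ± 0.05 (SE, limma adjusted p = 0.0355), which was lost in 9 of 27 alternatives, including without CK replicate 1 or 2 at 6 h or CK replicate 2 or 3 at 3 d (adjusted p = 0.0670 to 0.143).

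Between 5 d and 3 d, OsEIN2 was the 1 ethylene probe set called in CK roots, where 9.20% of all tested probe sets were called. It averaged 930.5 ± 56.2 in CK roots at 5 d and 783 ± 18.4 in CK roots at 3 d, a log2 difference of 0.25 ± 0.05 (SE, limma adjusted p = 0.0102), and leaving out CK replicate 2 at 5 d ended the call (adjusted p = 0.0577). The lowest OsEIN2 signals of all 6 groups were those of 3 d in both treatments, 778 ± 24.6 in LK and 783 ± 18.4 in CK roots. The clock gene OsCCA1, whose transcript follows the time of day, also differed between the CK groups. Its brighter probe set averaged 129.9 ± 5.73 at 6 h, 780.5 ± 44.4 at 3 d and 1220 ± 78.8 at 5 d (SD, n = 3). Its other probe set averaged 4.67, 2.75 and 3.12 in the same groups, below every array median, and was too dim to compare. The hour of harvest and the length of culture cannot be told apart in these groups. In LK roots at 6 h the brighter probe set averaged 178.6 ± 12.1, with no overlap with CK roots, while the treatments overlapped at 3 d and 5 d. The part of OsCCA1 in the comparisons of LK with CK roots was not tested.

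Around the members, a list of other ethylene pathway names matched 24 probe sets of 18 genes, of which 16 were tested. All belong to the ERF family, to S-adenosylmethionine synthesis and the methionine cycle, or to the receptors. The listed names of further ACC synthases and ACC oxidases, of further EIN3/EIL factors, and of the CTR and EBF proteins matched no probe set. The annotation covers only part of the array, which may still hold these genes. That part of the pathway was therefore not surveyed. Limma called none at 6 h, against 0.270% of all tested probe sets higher and 0.258% lower. None of the 16 had an unadjusted p under 0.05 then, against 2330 of the 25165 tested probe sets. At 3 d it called 1 of the 16 (6.25%) as higher and none as lower, against 8.50% and 5.75% of all tested probe sets. At 5 d it again called 1 as higher and none as lower, against 10.5% and 12.8%. The 16 had a median log2 fold change of -0.01 (6 h), 0.20 (3 d) and 0.13 (5 d), beside -0.00, 0.04 and -0.03 for all tested probe sets. The called probe set was OsMTK1 at both times, the methylthioribose kinase of the cycle that returns to methionine the methylthio group released when ACC is made. It read 1096, 1053 and 1099 in LK roots at 3 d, against 581, 796 and 813 in CK roots, and 1141, 1211 and 1169 in LK roots at 5 d, against 867, 815 and 754 in CK roots. The arrays did not overlap at either time. The log2 fold change was 0.58 ± 0.10 at 3 d (SE, limma adjusted p = 0.000550) and 0.53 ± 0.10 at 5 d (SE, limma adjusted p = 0.000649). At 6 h the means were 874 ± 55.5 in LK and 888 ± 53.9 in CK roots, with overlapping arrays.

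The other names counted in that list gave no call. The 2 tested probe sets of further receptors had log2 fold changes of -0.05 to 0.08 over the 3 times. The 8 tested probe sets of the ERF family, most of them DREB factors that carry an ERF number as a synonym and are better known from cold and drought responses, had log2 fold changes of -0.35 to 0.37 at 6 h, 0.02 to 0.75 at 3 d and -0.08 to 0.57 at 5 d. Another 2 genes that carry an ARD name, after an enzyme of the methionine cycle, were left out of this count because the same entries also carry names of heat stress factors. Of their 4 probe sets, 3 were tested. One probe set of ARD1 (LOC4348646) read 501, 404 and 407 in LK roots at 3 d, against 300.9, 280.2 and 327 in CK roots, and 482, 447 and 453 in LK roots at 5 d, against 348, 326 and 292 in CK roots. The treatments did not overlap, and it was called as higher in LK roots at both times, with log2 fold changes of 0.53 ± 0.09 at 3 d (SE, limma adjusted p = 0.000649) and 0.52 ± 0.09 at 5 d (SE, limma adjusted p = 0.000396). The other, dimmer ARD1 probe set averaged 49.4 ± 4.43 in LK and 32.6 ± 5.06 in CK roots at 3 d, which also passed (log2 fold change 0.61 ± 0.15, SE, limma adjusted p = 0.0115), and 44.8 ± 1.40 in LK and 44.7 ± 3.35 in CK roots at 5 d, which did not. The tested ARD2 (HSFA2D) probe set was not called at any time. No alternatives were run for these left-out probe sets.

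The 5 named genes whose signals ran most like that of the EIN3-like probe set over the 18 arrays had Pearson r between 0.923 and 0.953, given as a description, since all values come from the same arrays and share the contrast of LK and CK roots. They were UGE-3, a UDP-glucose 4-epimerase (r = 0.953), GSTZ5, a zeta-class glutathione transferase (r = 0.947), PHYA, the phytochrome A photoreceptor (r = 0.939), OsbZIP37 (TGAL6), a bZIP transcription factor (r = 0.933), and FBP1, a fructose-1,6-bisphosphatase (r = 0.923). UGE-3 averaged 114 in LK and 64.4 in CK roots at 3 d, and 179.9 in LK and 72.6 in CK roots at 5 d. GSTZ5 averaged 899.5 in LK and 509 in CK roots at 3 d, and 1159 in LK and 609.8 in CK roots at 5 d.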

How the data were processed

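The authors scanned the arrays with GCOS 1.0 (MAS 5.0) and normalized all 18 together with dChip; the deposited values are 1 linear signal intensity per probe set and array. No detection calls entered the analysis. The precision is limited by the 3 arrays a group.

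Probe sets were joined to genes through the platform annotation and, for names, the RefSeq gene table of rice assembly ASM3414082v1. The annotation table holds 22531 probe sets, 22436 with 1 gene and 95 with several. No sequence was read. All columns of the table belong to the 18 samples.

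Values were floored at 10 and put on the log2 scale, and the 44% of the 57194 probe sets with the highest mean were kept. limma 3.58.1 in R 4.3.3 was fitted to the 6 groups with an intensity trend, with 7 contrasts (LK against CK at 3 times, the LK effect between successive times, CK roots between successive times), each adjusted by Benjamini-Hochberg over the 25165 kept probe sets and called at 0.05. The code was checked on simulated data. Replicate numbers were not used to pair arrays: same-numbered LK and CK arrays of a time had correlations of -0.09 to 0.26 in their deviations from the group means.

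All member probe sets are named; of the wider pathway list only called ones, and the most alike are the 5 named genes with the highest r. The members and lists were chosen with earlier results of these data known. Alternatives tried were: quantile normalization, centring of each array on its median, a floor of 50 in place of 10, addition of 32 before taking log2, keeping all probe sets or the top 30%, a fit on the compared arrays alone, no intensity trend, the replicate number as a block, each array left out in turn and, for the 3 counts of LK against CK calls, the study threshold (a ratio of 1.2 with an unadjusted p under 0.05).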

Additional observations from a re-analysis of the deposited data

Results flagged for a closer look

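The effect of K+ removal on 2 ethylene probe sets differed between times by the interaction test. For OsACS2 the log2 fold change of LK over CK roots was -0.92 at 5 d and 0.17 at 3 d, a difference of -1.09 (limma adjusted p = 0.0394). Of all tested probe sets, 1.03% passed that test, and the OsACS2 call was kept in only 11 of 27 alternatives. For OsEIL1B the log2 fold change was 0.53 at 3 d and -0.29 at 6 h, a difference of 0.82 (limma adjusted p = 0.0241). Here 2.88% of all tested probe sets passed, and the OsEIL1B call was kept in 19 of 27 alternatives.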

How the results depend on the processing

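Of the 12 calls at single members, 4 held under every alternative: OsACS2 at 5 d, OsEIL1B at 5 d and the EIN3-like probe set at 3 d and 5 d. The dim OsETR2 probe set at 5 d held in all but the floor of 50, which lies above all its values. No called value changed sign, and 8 of the 65 uncalled results passed under at least 1 alternative. Counts that moved by over 1.5 times, or to or off 0, follow first. The number of LK against CK calls among the ethylene probe sets at 3 d was 1 without a filter, against 2. With the top 30% it was also 1, since the EIN3-like probe set was then not in the test. At 5 d it was 3 with the top 30%, against 5, since the EIN3-like and the dim OsETR2 probe sets were not in the test. At 6 h it was 1, OsEIL1B as lower, under the study threshold. The LK effect differed for 0 probe sets between 3 d and 6 h without a filter and for 2 with the floor of 50, against 1. Between 5 d and 3 d it differed for 0 without a filter, with median centring, with only the arrays compared and without the intensity trend, and for 2 with quantile normalization, against 1. In CK roots at 3 d against 6 h, 1 was called with quantile normalization, median centring or no intensity trend and 0 with only the arrays compared, against 2; at 5 d against 3 d, 2 were called with quantile normalization or no intensity trend and 0 with median centring or only the arrays compared, against 1. In the wider pathway list at 3 d, 2 were called with the floor of 50 and 3 with only the arrays compared, against 1. Within 1.5 times of the main counts, quantile normalization gave 3 calls at 3 d, the third being the bright OsETR2 probe set as lower, and at 5 d there were 4 without a filter, with the floor of 50 or without the intensity trend, and 6 with only the arrays compared or the study threshold. Apart from probe sets that the stricter filter left out, the cause of these shifts was not tested. With the replicate block, the counts were 1 for CK roots at 3 d against 6 h (OsEIN2 lost, adjusted p = 0.0825), 2 for the wider list at 3 d and 4 for LK against CK roots at 5 d (the bright OsETR2 probe set lost, adjusted p = 0.0855), and no other call of an ethylene probe set ended. The arrays share only a number, so this block is not a pairing in the design.

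Leaving out each array in turn gave 0 calls at 6 h, 1 to 2 at 3 d and 4 to 5 at 5 d, 0 to 2 and 0 to 1 for the differences of LK effects, 0 to 2 for each CK comparison, and in the wider list 0 at 6 h, 1 to 2 at 3 d and 1 to 3 at 5 d. The dim probe sets (OsACS1, the second ones of OsEIL1A and the EIN3-like gene) lie too near the array median to say more.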
